A study of Mus musculus with 4 samples.

Results

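The genes described here were 10 genes of the endoplasmic reticulum (ER) protein-folding machinery and the unfolded protein response: Hspa5, Hsp90b1, Pdia4, Pdia6, Sdf2l1, Creld2, Manf, Xbp1, Derl3 and Dnajb9. They were taken by gene name, not by their values, from the 54532 genes of the deposited count table, and all 10 had 1 row and passed the filter on low counts. The question put to the data was whether the RNA of these genes differed in CD8+ T cells stimulated with or without interferon α (IFNα). Splenic CD8+ T cells of C57BL/6 mice, isolated with magnetic beads, had been stimulated with antibodies to CD3 and CD28 for 48 h. The methods describe the starting cells as naive. The 2 control samples received the antibodies alone, and the 2 IFNα samples received IFNα at 2000 U/ml as well. The sources used here do not say whether the samples came from separate mice or cultures, so the p-values speak of the spread among these samples alone, and part of that spread may be technical. In bulk RNA, a smaller share of cells expressing a gene and less RNA of it per cell cannot be told apart.

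The ER folds secreted and membrane proteins. When unfolded proteins gather there, BiP (the product of Hspa5) leaves the sensors IRE1, ATF6 and PERK. IRE1 splices Xbp1 mRNA into the form that encodes an active transcription factor, ATF6 is cut free from the membrane to become another, and PERK slows translation and favours ATF4. XBP1 and ATF6 raise the genes of chaperones, disulfide isomerases and the ER-associated degradation (ERAD) machinery, which takes misfolded proteins back to the cytosol. T cells enlarge their ER after activation, and XBP1 is known to be spliced in activated CD8+ T cells. Counts per gene do not separate spliced from unspliced Xbp1 mRNA.

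Among the 10 genes only Derl3 passed the test with all 4 samples in the fit, and it fell: from 13.1 and 10.9 CPM (read counts scaled to a common library size) in the controls to 3.39 and 4.24 in the IFNα samples. The other 9, the chaperones BiP and GRP94 (Hsp90b1) among them, did not pass the test, and their 95% intervals stayed within a log2 fold change of 1 in either direction. Hspa5 had the highest estimate, 0.37 on the log2 scale. Its adjusted p was 0.476 by edgeR's quasi-likelihood test.

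Total counts were 16096121 to 17676062 per sample, and the 10 genes together held 0.123% to 0.139% of them. The CPM values are scaled by TMM, a factor per sample that sets aside genes with extreme ratios. All 5 CD8 T cell markers (Cd8a, Cd8b1, Cd3d, Cd3e and Cd3g) were tested and none was called, with a summed level of 2312 to 2887 CPM in the controls and 2451 to 2553 CPM in the IFNα samples. Cd4 stayed under 1 CPM in every sample. The interferon-induced genes Isg15, Mx1, Ifit1 and Irf7 all rose in the IFNα samples, by 4.51 to 6.11 on the log2 scale.

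The promoters of these genes are known for the ER stress response element (ERSE), to which ATF6 and XBP1 bind together with the factor NF-Y. Promoter windows from RefSeq (GRCm38.p6), running from 250 bases before to 50 bases after the gene's start, were matched for 9 of the 10 genes, and Manf was not matched. The ERSE was searched as CCAAT, any 9 bases and CCACG, on both strands. It was present in 5 of the 9 windows (Hspa5, Hsp90b1, Pdia6, Creld2 and Derl3), against 0.119% of the 32851 mouse promoter windows of the same length. The elements are shown because they are what those 5 promoters share. Each is read 5′ to 3′ from CCAAT to CCACG with 5 flanking bases a side, and the capitals mark the 10 fixed bases. Hsp90b1 had 2, on opposite strands.
Hspa5 chr2:34772025-34772043 (plus strand): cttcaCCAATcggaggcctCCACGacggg
Hsp90b1 chr10:86705638-86705656 (minus strand): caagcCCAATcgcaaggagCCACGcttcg
Hsp90b1 chr10:86705533-86705551 (plus strand): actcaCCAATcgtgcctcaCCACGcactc
Pdia6 chr12:17266491-17266509 (plus strand): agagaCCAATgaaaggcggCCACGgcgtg
Creld2 chr15:88819520-88819538 (minus strand): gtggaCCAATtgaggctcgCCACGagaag
Derl3 chr10:75893242-75893260 (minus strand): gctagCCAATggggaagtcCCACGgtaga

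All 6 elements ended before the RefSeq start. The last base of the Hspa5 element on the start's side was 46 bases before it, and that of the Derl3 element 137 bases before it. Of those 5 genes only Derl3 passed the test, and the estimates of the 5 lay on both sides of 0. The RefSeq starts are not those of the deposited table, in which Hspa5 begins at base 34771970, before its element. The whole windows of Derl3, the gene that changed, and Hspa5, the most abundant of the 10, follow on the genes' own strand, with the fixed bases of the ERSE in capitals. In Derl3 the element lies on the opposite strand and is read as CGTGG and ATTGG.
Derl3 chr10:75893148-75893447 (plus strand): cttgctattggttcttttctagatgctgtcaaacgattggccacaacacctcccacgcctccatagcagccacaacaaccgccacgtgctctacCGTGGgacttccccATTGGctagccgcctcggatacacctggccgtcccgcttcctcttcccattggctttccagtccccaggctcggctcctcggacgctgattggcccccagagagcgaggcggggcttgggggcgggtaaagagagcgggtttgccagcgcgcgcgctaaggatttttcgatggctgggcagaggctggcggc
Hspa5 chr2:34771840-34772139 (plus strand): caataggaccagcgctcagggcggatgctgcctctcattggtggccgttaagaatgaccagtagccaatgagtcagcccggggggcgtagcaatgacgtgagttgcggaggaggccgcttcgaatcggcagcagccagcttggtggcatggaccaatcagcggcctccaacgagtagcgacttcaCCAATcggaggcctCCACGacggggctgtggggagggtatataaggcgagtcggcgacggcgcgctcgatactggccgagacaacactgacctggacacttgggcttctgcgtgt

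Shorter motifs are common in promoters. The CCACG core occurred in 8 of the 9 windows and in 32.8% of all, and the CCAAT box in 8 of the 9 and in 37.4% of all. Both are parts of the ERSE, so the searches overlap. The Xbp1 window held neither. The letters of ERSE-II (ATTGG, any base and CCACG, 0.0365% of all windows), of the XBP1 site UPRE (TGACGTGG, 0.676%), of the cyclic AMP response element (TGACGTCA, 1.79%), of an ATF4 site (TGATGNAA, 3.97%) and of the interferon-stimulated response element (GAAA, any 2 bases and GAAA, 3.44%) were in 0 of the 9. With the 250 bases before the start alone, the ERSE count stayed at 5.

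Hspa5 encodes BiP, the Hsp70 chaperone of the ER lumen and the main brake on the stress sensors (ENSMUSG00000026864, chr2:34771970-34777547, plus strand, 7 merged exons). Its level was 498 and 410 CPM in the controls and 579 and 590 CPM in the IFNα samples. Both IFNα samples lay above both controls, by 1.16 to 1.44 times for the 4 pairs. The means were 454 ± 62.5 CPM (SD, n = 2) and 585 ± 7.94 CPM (SD, n = 2), and the controls differed from each other more than the IFNα samples did. By edgeR's quasi-likelihood test, adjusted by Benjamini-Hochberg over all tested genes, the log2 fold change was 0.37 (standard error 0.16, 95% interval −0.03 to 0.76, adjusted p = 0.476). The call turned on the controls: without control 1 the log2 fold change was 0.52 (adjusted p = 1.75e-09) and without control 2 it was 0.23 (adjusted p = 0.0112) by edgeR, and in none of the other 16 of 18 alternatives did it pass. In those fits the spread of the controls is taken from the IFNα samples, and calls were many across the table. At an adjusted p under 0.05, 7.5% of all tested genes were higher and 6.25% lower without control 1, and 22.8% were higher and 21.6% lower without control 2.

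Hsp90b1 encodes GRP94, the Hsp90 of the ER, which folds Toll-like receptors and integrins. It measured 328 and 311 CPM in the controls and 332 and 323 CPM in the IFNα samples, so the groups overlapped. The log2 fold change was 0.04 (95% interval −0.28 to 0.35). Its row (chr10:86690209-86705509, minus strand) overlaps 3 other annotated genes, 1 of them an expressed pseudogene on the opposite strand with 415 shared exonic bases, and whether reads were counted by strand is not stated.

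Pdia4 and Pdia6 encode protein disulfide isomerases, which make and rearrange disulfide bonds. Pdia4 (chr6:47796141-47813430, minus strand) was the steadiest of the chaperone genes, with 104 and 102 CPM in the controls and 102 and 105 CPM in the IFNα samples. Its log2 fold change was 0.00 (95% interval −0.28 to 0.29). Pdia6 (chr12:17266545-17284770, plus strand) measured 215 and 164 CPM in the controls and 159 and 155 CPM in the IFNα samples. Both IFNα samples lay below both controls, but the second control was close to them, and the log2 fold change of −0.27 (95% interval −0.68 to 0.13) did not pass (adjusted p = 0.581, edgeR). Hspa5 and Pdia6, which both carry the ERSE, thus lay on opposite sides of 0.

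Sdf2l1, Creld2 and Manf encode small ER proteins that are induced by ER stress. SDF2L1 works with BiP and its J-domain partners, CRELD2 is a disulfide isomerase-like protein, and MANF is a secreted factor that binds BiP. Sdf2l1 (chr16:17130138-17132383, minus strand) measured 52.5 and 37.0 CPM in the controls and 37.9 and 45.1 CPM in the IFNα samples. For Creld2 (chr15:88819646-88826683, plus strand) the values were 41.3 and 31.4 CPM in the controls and 34.9 and 37.9 CPM in the IFNα samples. Manf (chr9:106838312-106891979, minus strand) had 91.5 and 67.9 CPM in the controls and 74.2 and 76.6 CPM in the IFNα samples. In all 3 genes both IFNα values fell between the 2 control values, and the log2 fold changes were −0.11 (95% interval −0.62 to 0.40), 0.00 (−0.43 to 0.43) and −0.08 (−0.51 to 0.35). Manf shares up to 166 exonic bases with other genes, among them an antisense transcript.

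Xbp1 encodes the transcription factor of the IRE1 arm (ENSMUSG00000020484, chr11:5520659-5525893, plus strand, 4 merged exons). Its level was 40.1 and 38.5 CPM in the controls and 30.7 and 35.4 CPM in the IFNα samples, with both IFNα samples below both controls. The log2 fold change was −0.25 (standard error 0.14, 95% interval −0.59 to 0.09, adjusted p = 0.561 by edgeR). It did not pass, and its interval included 0. Dnajb9 encodes ERdj4, a J-domain partner of BiP and a target of XBP1 (chr12:44205559-44210326, minus strand). It had the closest replicates of the 10, with 13.6 CPM in both controls and 14.4 and 14.2 CPM in the IFNα samples. Although the groups did not overlap, the IFNα values were only 1.04 to 1.06 times the control values, and the log2 fold change was 0.07 (95% interval −0.29 to 0.42).

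Derl3 encodes derlin-3, a membrane protein of the ERAD machinery that is induced in ER stress (ENSMUSG00000009092, chr10:75893413-75895941, plus strand, 4 merged exons, no overlap with another annotated gene). Raw counts were 226 and 192 in the controls and 54 and 73 in the IFNα samples. The groups were far apart, at 12.0 ± 1.5 CPM (SD, n = 2) and 3.81 ± 0.602 CPM (SD, n = 2), and the highest of the 4 ratios between an IFNα sample and a control was 0.388. The log2 fold change was −1.65 (standard error 0.21, 95% interval −2.18 to −1.12, adjusted p = 0.0268, edgeR's quasi-likelihood test), which is a level 2.17 to 4.54 times lower. It passed in all 18 alternatives, with log2 fold changes of −1.82 to −1.49 and adjusted p-values of 2.55e-17 to 0.0315.

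Some markers of other cell types moved with Derl3. Lyz2, the lysozyme of macrophages and related cells, measured 16.5 and 13.96 CPM in the controls and 4.96 and 6.10 CPM in the IFNα samples (log2 fold change −1.46, adjusted p = 0.0297, edgeR). The summed level of the 9 macrophage and dendritic cell markers was 17.2 to 19.3 CPM in the controls and 7.47 to 8.54 CPM in the IFNα samples, and most of it was Lyz2 itself. Of the 9, 3 were tested and 1 was called lower. Xcr1, a gene of cross-presenting dendritic cells, measured 1.21 and 1.08 CPM in the controls and 0.439 and 0.290 CPM in the IFNα samples (adjusted p = 0.285, edgeR). The remaining markers did not share a direction. Csf1r, the third tested gene and a receptor of macrophages, had 11 and 21 counts in the controls and 13 and 17 in the IFNα samples (log2 fold change −0.02). Itgam had 12 and 7 counts in the controls and 1 and 5 in the IFNα samples. Cd14 had 2 and 3 counts in the controls and 0 in both IFNα samples. Fcgr1 had 1 count in each control and 9 and 10 counts in the IFNα samples. Adgre1 had 0 and 4 against 6 and 3, and Clec9a 0 and 0 against 2 and 1. Flt3 had 1 or 2 counts in each sample. Of the 13 B and plasma cell markers 7 were tested and 0 were called by edgeR's quasi-likelihood test, 1 (Cd79b) was lower at an unadjusted p under 0.05, and edgeR's exact test called 1 lower. Their summed level was 385 to 462 CPM in the controls and 326 to 334 CPM in the IFNα samples, and nearly all of it was Ighm, at 435 and 362 CPM in the controls and 314 and 307 CPM in the IFNα samples. Among the 7, 4 had estimates above 0 (Cd79a 0.05, Cd22 0.47, Jchain 0.36 and Igkc 0.30), and the median log2 fold change was 0.05. The others were below 0 (Cd79b −0.87, Ighm −0.36 and Sdc1 −0.93). Sdc1 had 29 and 19 counts in the controls and 9 and 15 in the IFNα samples (adjusted p = 0.537, edgeR). The defining genes Ms4a1 and Pax5 had 0 or 1 count in every sample, and Mzb1, a plasma cell gene, had 1 and 2 counts in the controls and 4 and 2 in the IFNα samples. Of the 7 plasmacytoid dendritic cell markers 4 were tested and 0 were called. Their summed level was 308.5 and 308.7 CPM in the controls and 322 and 326 CPM in the IFNα samples. Of the 4, 3 had estimates above 0 (Pacsin1 0.18, Irf8 0.06 and Tcf4 0.50), and Ccr9 was at −0.11. The 2 NK cell markers, Ncr1 and Klrb1c, had too few counts to be tested. The part of these cells in the fall of Derl3 was not tested.

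**Figure D1:**
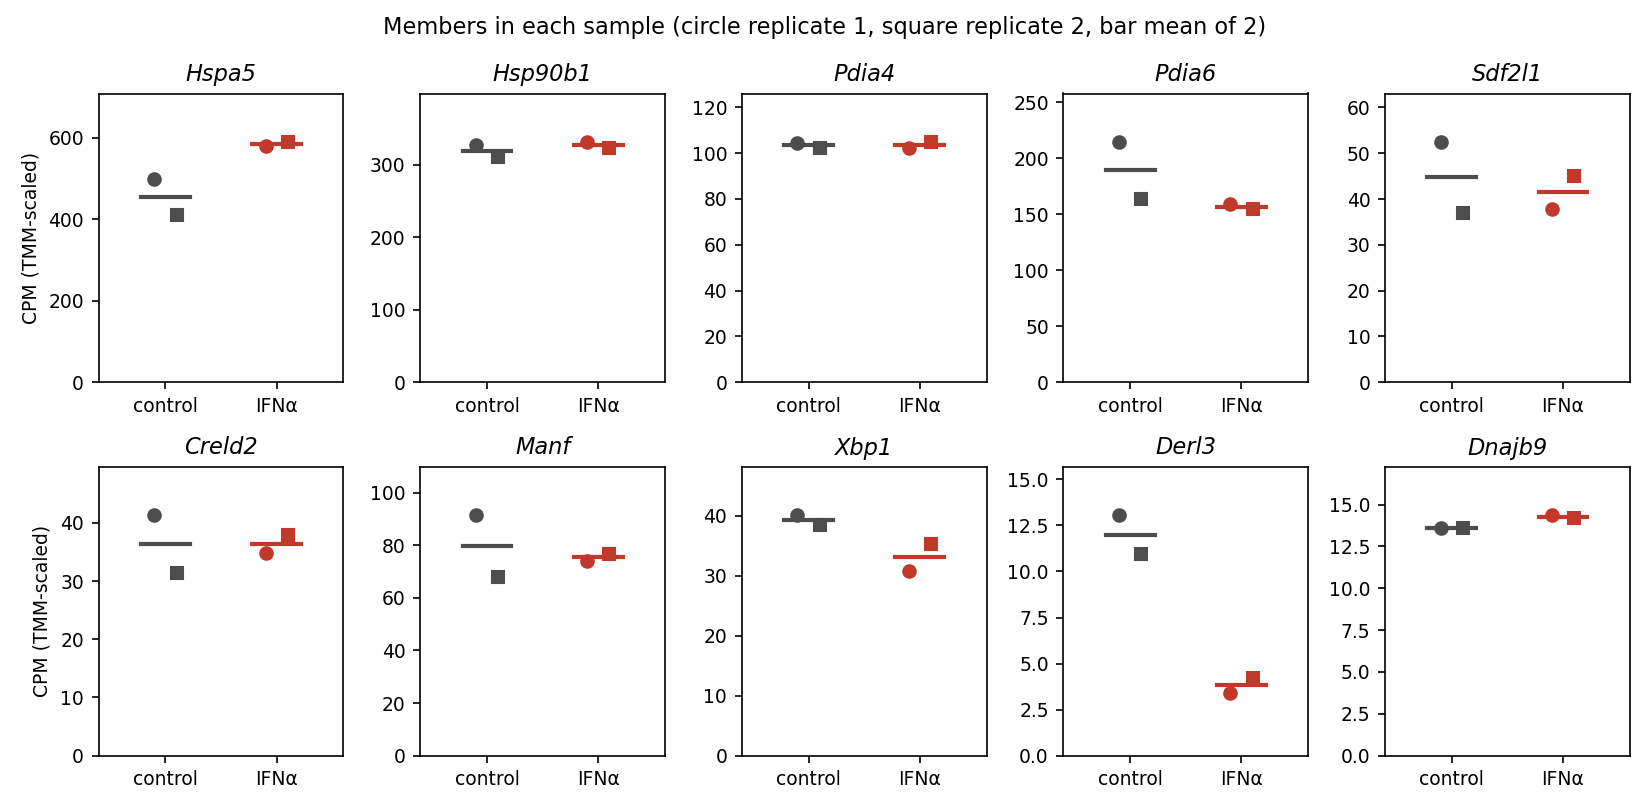
Level of each gene in CPM (vertical axis from 0, its own scale in each panel) in the control samples (grey) and the IFNα samples (red). Circles are replicate 1, squares replicate 2 and bars the mean of the 2. The IFNα values of Derl3, 3.39 and 4.24 CPM, lie far below those of the controls, 13.1 and 10.9 CPM.

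The other derlins, which lie outside the 10 genes and were looked at after the value of Derl3 was known, showed no such difference. Derl1 measured 102 and 97.1 CPM in the controls and 100 CPM in both IFNα samples, with a log2 fold change of 0.01 (95% interval −0.28 to 0.30). For Derl2 the values were 59.8 and 62.9 CPM and 65.1 and 61.8 CPM, with a log2 fold change of 0.05 (−0.25 to 0.35). Per kilobase of gene length, Derl3 made up 14.7% and 12.9% of the summed level of the 3 derlins in the controls and 4.26% and 5.33% in the IFNα samples.

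Taking the 10 genes as a set, 1 was lower and 0 were higher at an adjusted p under 0.05, and 1 had an unadjusted p under 0.05. Over all 14417 genes tested, 0.222% were lower and 1.43% were higher by that rule. Where a log2 fold change beyond 1 in either direction was required as well, Derl3 was still called, and the shares over all genes were 0.139% lower and 1.28% higher. The exact test, the likelihood ratio test, DESeq2 and limma-voom each called 1 of the 10 lower and 0 higher. Without control 2, however, 5 were called lower (Derl3, Pdia6, Sdf2l1, Manf and Xbp1) and Hspa5 higher, in a fit that called 21.6% of all tested genes lower and 22.8% higher. Both IFNα samples lay above both controls for 2 of the 10 genes and below them for 3, while 23.1% of all tested genes lay above and 23.4% below. The median log2 fold change of the 10 was −0.04, beside −0.01 over all tested genes, and 5 of the 10 estimates were above 0.

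**Figure D2:**
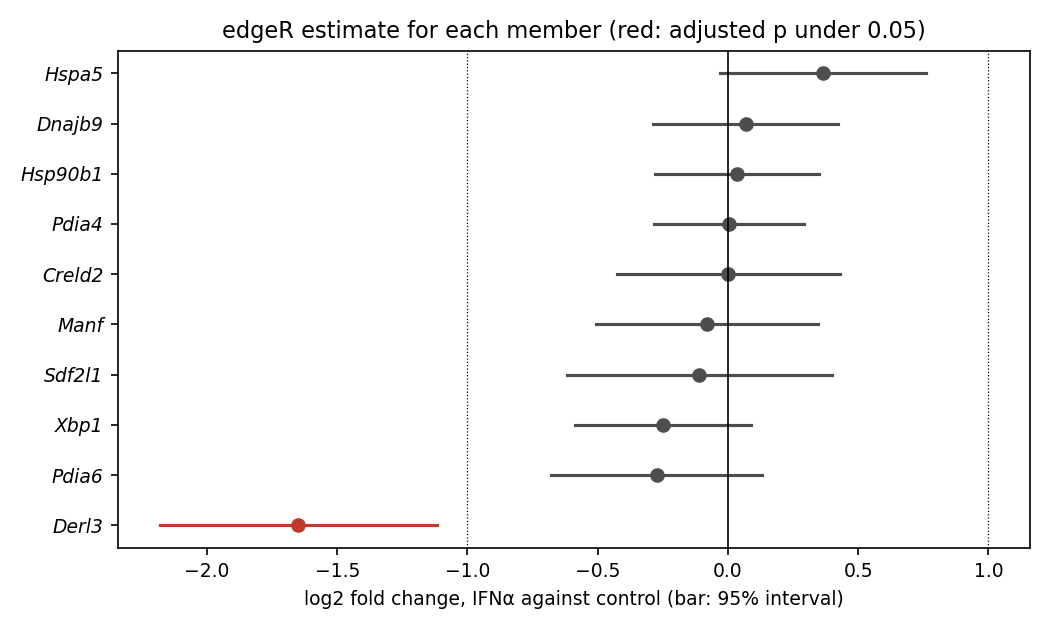
Log2 fold change between IFNα and control samples (horizontal axis) for each gene, with bars for the 95% interval of edgeR's fit and dotted lines at a log2 fold change of 1 in size. Derl3, in red, is the only gene with an adjusted p under 0.05, and the interval of Hspa5 runs from −0.03 to 0.76.

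The summed level of the 10 genes was 1397 and 1186 CPM in the controls and 1367 and 1386 CPM in the IFNα samples. The means of 1291 ± 149 CPM and 1377 ± 13.6 CPM (SD, n = 2 each) differed by less than the SD of the controls. The make-up of the sum differed more. Hspa5 accounted for 35.7% and 34.5% of it in the controls and for 42.3% and 42.6% in the IFNα samples. Without Hspa5, the other 9 summed to 838 ± 86.2 CPM in the controls and 792 ± 5.69 CPM in the IFNα samples, a ratio of 0.946 in place of 1.07.

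Levels can be compared between genes only per length. In the controls Hspa5 led with a mean of 107 CPM per kilobase, ahead of Hsp90b1 with 79.2 CPM per kilobase. Pdia6 (50.5), Pdia4 (43.1) and Sdf2l1 (40.4 CPM per kilobase) came next, and the samples of Pdia4 and Sdf2l1 overlapped. Creld2 (26.6) and Manf (22.6 CPM per kilobase) overlapped as well, and Xbp1 (12.1), Derl3 (6.02) and Dnajb9 (5.33 CPM per kilobase) closed the order. Over all 4 samples Hspa5 was 293rd and Hsp90b1 was 512th of 22045 protein-coding genes by mean level per kilobase. In the IFNα samples the order was the same but for neighbouring exchanges: Pdia4 (43.2) stood just above Pdia6 (41.8 CPM per kilobase), and Derl3 (1.91) moved below Dnajb9 (5.60 CPM per kilobase).

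The 2 controls were not alike for these genes: 9 of the 10 were lower in control 2 than in control 1, with a median log2 ratio of −0.26. The ratio ran from −0.50 for Sdf2l1 to 0.00 for Dnajb9. Between the IFNα samples it ran from −0.04 for Pdia6 to 0.29 for Derl3. The difference between the controls moved with gene length across the table. Among 10105 genes with a mean of at least 5 CPM, the median log2 ratio of control 2 to control 1 was −0.36 in the shortest of 5 length classes of near-equal size (47 to 2394 bases) and 0.37 in the longest (7515 bases and more). In the same classes the median log2 fold change between IFNα and control was −0.19 and 0.17. The 10 genes were 1108 (Sdf2l1) to 4229 bases long (Hspa5). They fell in the 3 shortest classes, where the median log2 ratio of control 2 to control 1 was −0.36, −0.17 and −0.01. The share of all tested genes lower in control 2 was not counted. With an offset for gene length in the fit, Derl3 alone still passed, the estimate for Hspa5 was 0.40 (adjusted p = 0.157, edgeR), and Sdf2l1 changed sign to 0.12.

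**Figure D3:**
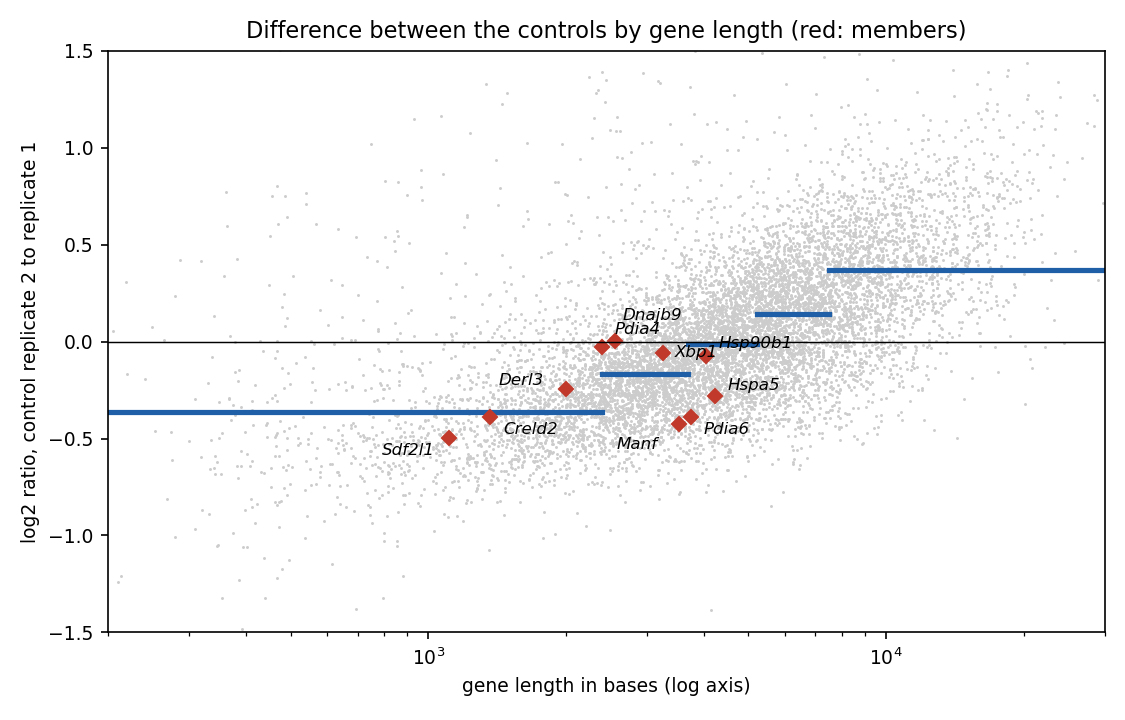
Control replicate 2 over control replicate 1 as a log2 ratio (vertical axis) against gene length in bases (log axis) for genes with a mean of at least 5 CPM, with the 10 genes as red diamonds and the median of each of 5 length classes as a blue bar. Of 10105 genes, 94 lie outside the axes, and 9 of the 10 red points lie below 0.

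The rest of the ER folding and stress machinery was examined in lists of genes by role. No list held a gene that passed in the main fit, edgeR's quasi-likelihood test with all 4 samples and no offset for gene length. Across the 8 lists, 211 genes were tested. At an unadjusted p under 0.05, 10 of them were higher and 5 lower, and over all tested genes the shares by that rule were 5.72% and 5.55%. Estimates above 0 were found for 101 of the 211, and for 48.2% of all tested genes. The estimates rested on the controls: 150 of 211 were above 0 without control 1, and 85 of 213 without control 2. The median log2 fold changes without control 1 and without control 2 were 0.04 and −0.27 for the other ER chaperones. They were 0.09 and 0.03 for the ERAD genes and 0.07 and −0.15 for the genes of protein entry. Over all tested genes they were −0.001 and −0.004. Without IFNα 1, 112 of 213 estimates were above 0, and without IFNα 2, 99 of 212. Over all 14417 genes, the exact test called 424 higher and 224 lower at an adjusted p under 0.05. The likelihood ratio test called 430 and 233, DESeq2 346 and 87, and limma-voom 213 and 32.

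The other ER chaperones and folding enzymes, 32 tested genes, had 0 higher and 0 lower, with 1 higher and 3 lower at an unadjusted p under 0.05 and a median log2 fold change of −0.12. The lectin chaperones Calr (−0.05) and Canx (0.10) and the isomerases Pdia3 (0.03) and P4hb (−0.15) had log2 fold changes near 0. Another isomerase, Pdia5, stood at −1.24 (adjusted p = 0.326, edgeR). Partners of BiP lay on both sides of 0 without passing. Hyou1 (0.26), Dnajb11 (0.39), Dnajc1 (0.14) and Dnajc3 (0.09) were above it, and Sil1 (−0.24) and Dnajc10 (−0.11) below. The smallest p-values belonged to Prdx4, an ER peroxiredoxin, which measured 21.2 and 15.5 CPM in the controls and 9.47 and 11.6 CPM in the IFNα samples (log2 fold change −0.80, adjusted p = 0.232), and to Ppic, an ER cyclophilin (−0.52, adjusted p = 0.326). The exact test and the likelihood ratio test each called 1 of this list lower, and DESeq2 and limma-voom called 0.

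ERAD genes, 30 tested, had 0 higher and 0 lower, with 3 higher and 1 lower at an unadjusted p under 0.05 and a median log2 fold change of 0.06. Edem3, an ER mannosidase that marks misfolded glycoproteins, measured 36.2 and 66.3 CPM in the controls and 119 and 114 CPM in the IFNα samples, a log2 fold change of 1.18 (adjusted p = 0.176, edgeR). Its controls differed by a log2 ratio of 0.87, more than those of any of the 10 genes. Over its 18 alternatives Edem3 passed in 11. Syvn1, the ERAD ubiquitin ligase, measured 49.1 and 47.7 CPM in the controls and 69.7 and 66.5 CPM in the IFNα samples (log2 fold change 0.49, adjusted p = 0.182). Derl3 was thus on the other side of 0 from both. Herpud1, the ERAD gene lower at an unadjusted p under 0.05, was on the side of Derl3. It measured 45.7 and 40.7 CPM in the controls and 33.7 and 34.7 CPM in the IFNα samples (log2 fold change −0.34, adjusted p = 0.428, edgeR). The exact test and the likelihood ratio test each called 2 ERAD genes higher, DESeq2 called 1 and limma-voom 0. With the offset for gene length, edgeR's quasi-likelihood test called 1 ERAD gene higher, and 348 of all 14417 tested genes.

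The sensors and transcription factors of the response, 16 tested, had 0 called and 0 with an unadjusted p under 0.05, and the exact test, the likelihood ratio test, DESeq2 and limma-voom also called 0. Their median log2 fold change was −0.04. Ern1, which encodes IRE1α, had an estimate of 0.46 (adjusted p = 0.534), Eif2ak3, which encodes PERK, of −0.17, Atf6 of 0.16, and Creb3 of −0.32 (adjusted p = 0.528). Among 14 tested genes downstream of PERK 0 passed, 9 had estimates above 0, 2 were higher at an unadjusted p under 0.05, and the median log2 fold change was 0.27. Atf4 itself had −0.02 and Ddit3, which encodes CHOP, 0.25. Chac1, a glutathione-degrading enzyme induced by ATF4, had 2 and 3 counts in the controls and 30 and 20 in the IFNα samples, a log2 fold change of 3.34 (95% interval in folds 3.13 to 32.6, adjusted p = 0.0763, edgeR), and it passed in 10 of its 17 alternatives. Atf3 had 1.17 (adjusted p = 0.430). The exact test, the likelihood ratio test and DESeq2 each called 1 gene of this list higher, and limma-voom called 0.

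Protein entry into the ER (translocation, signal peptidase and oligosaccharyltransferase genes, 44 tested) had 0 called, 2 higher at an unadjusted p under 0.05 and a median log2 fold change of −0.07, and the exact test and the likelihood ratio test each called 1 higher while DESeq2 and limma-voom called 0. The leading gene, Srp54b, measured 9.94 and 2.28 CPM in the controls and 25.8 and 26.8 CPM in the IFNα samples (log2 fold change 2.11, adjusted p = 0.244). It has near-identical copies, of which Srp54c stood at 0.39 (adjusted p = 0.417) and Srp54a at −0.39 (adjusted p = 0.813), and reads may be split between them. Srp54a measured 8.67 and 10.3 CPM in the controls and 12.0 and 2.5 CPM in the IFNα samples, and its estimate ran from −1.92 to 0.34 over its 18 alternatives. ER export and retrieval genes (33 tested) had a median of −0.01 with Sec23b at 0.36 and Sec16a at 0.47. Cytosolic chaperones (33 tested) had a median of −0.00, with Hsph1 at 0.38 and Hspa2 at −1.05. Mitochondrial chaperones and proteases (12 tested) had a median of −0.01, with Htra2 at −0.19 and Dnaja3 at 0.13. In these last lists all of the tools called 0, and 1 export gene was higher, 1 cytosolic chaperone higher and 1 lower, and 0 mitochondrial genes either way at an unadjusted p under 0.05.

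**Figure D4:**
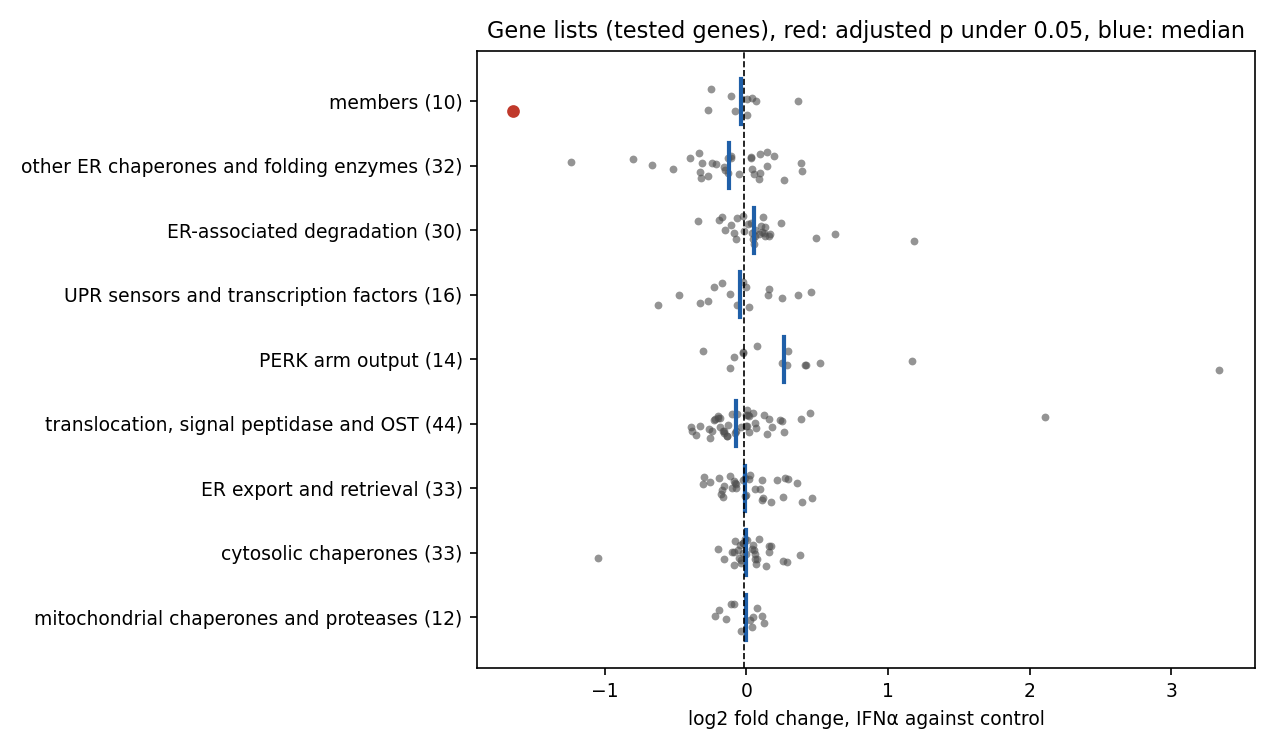
Log2 fold change between IFNα and control samples (horizontal axis) of every tested gene in the lists, with the number tested in brackets, a blue bar for each list's median and a dashed line at −0.01, the median of all tested genes. The only red point, an adjusted p under 0.05, is Derl3, and the highest point is Chac1 with 3.34.

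The genes whose pattern over the 4 samples was nearest to the mean pattern of the 10 were Ubac1, Tldc1, Cyb5r3, Lpxn and Wrap73, out of 9424 protein-coding genes searched. Likeness was the root mean square difference between log2 CPM profiles, each centred on its own mean, and was 0.0034 to 0.0084 for these genes. Ubac1, for example, measured 53.0 and 45.1 CPM in the controls and 42.0 and 44.7 CPM in the IFNα samples. The profile stood highest in control 1, and 4 points give it little shape. Derl3, with a log2 fold change of −1.65, is part of the mean pattern, while the median of the 10 genes was −0.04. Ubac1 stood at −0.18. The mean pattern therefore need not be that of most of the 10.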

How the data were processed

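The 4 RNA samples were grouped by their labels. Libraries were prepared with the NEBNext Ultra RNA kit and read on a HiSeq. Reads were mapped with HISAT2, and the authors deposited raw counts per gene made with featureCounts (version and strand setting not given in the sources used here). According to the submitters' processing notes the build was mm9, but 53585 of the 54532 deposited gene positions were those of GENCODE M21 (GRCm38). The single-sample files matched the table (0 counts differed).

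Counts were analysed in R 4.3.3 with edgeR 4.0.16: filterByExpr (minimum count 10, minimum total 15), TMM, glmQLFit (robust) and glmQLFTest with Benjamini-Hochberg adjustment over the 14417 genes kept. The fit had 2 residual degrees of freedom and a common dispersion of 0.0243. Genes were called at an adjusted p under 0.05. A log2 fold change beyond 1 in either direction was also required where stated. Standard errors and 95% intervals came from the moderated quasi-dispersion of the fit. On simulated counts with 2 samples a group, 50 of 50 genes changed by −2 on the log2 scale and 42 of 50 changed by −1 were recovered. The simulation held no difference between the controls by gene length, and only genes with a mean of at least 5 CPM were changed. Its recovery therefore need not hold for the real samples. limma 3.58.1 (voom) and DESeq2 1.42.0 (Wald test) were alternatives, as were other scalings, filters, an offset for gene length (lowess, span 0.3), a replicate block and leaving out each sample. Promoters were searched in Python 3.11.15.

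The genes, the lists and the tests were chosen with earlier results of these data known. From each list up to 4 passing genes were named, or the 2 lowest in p if under 2 passed, with the 5 genes nearest in pattern. Calr, Canx, Pdia3, Pdia5, P4hb, Hyou1, Dnajb11, Dnajc1, Dnajc3, Dnajc10, Sil1 and Herpud1 are named outside that rule. So are Eif2ak3, Atf6, Atf4, Ddit3, Srp54a and the other derlins.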

Additional observations from a re-analysis of the deposited data

How the results depend on the processing

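Derl3 kept its direction and passed under every alternative run. The ERSE count (5) and the summed level (IFNα over control 1.02 to 1.07 over the scalings) moved little. Genes called with a log2 fold change beyond 1 were 185 higher and 20 lower. They were 295 and 87 by the exact test, 298 and 94 by the likelihood ratio test, and 337 and 91 with crossed pairs as a block. They were 259 and 62 with no filter, 253 and 38 by DESeq2, 253 and 37 with the replicate block, 247 and 39 with the length offset and the block, and 206 and 32 with no fold threshold. The crossed block and the combined offset and block were chosen after seeing the data. Leaving out 1 sample gave 216 to 966 higher and 23 to 267 lower, with the highest counts without control 2 and the lowest without IFNα 2. Among the 10 genes, Derl3 alone had an estimate beyond 1 in size in these fits, and its estimate was below 0 in each.

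Uncalled estimates near 0 changed sign. With upper-quartile scaling Hsp90b1 was at −0.030, Pdia4 at −0.062 and Creld2 at −0.067. With total counts only they were at −0.010, −0.044 and −0.043. Creld2 was at −0.0016 with no filter. Sdf2l1 was at 0.12 with the length offset, with and without the block, and Manf at 0.00088 with both. Leaving out 1 sample gave Sdf2l1 −0.34 to 0.17, Manf −0.28 to 0.15, Pdia4 −0.015 to 0.026 and Creld2 −0.18 to 0.22. The cause was not tested.

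Same-numbered samples did not move together (correlation of same-numbered deviations −0.31 over 10105 genes), and the replicate block changed no call among the 10 genes. The difference between the controls moved with gene length, so this correlation cannot show whether the samples were paired. The sources used here do not say. With 2 samples a group, the intervals of the 9 uncalled genes do not show that these genes were unchanged.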

Other observations

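Over all the RefSeq promoter windows, 37 genes had the exact ERSE letters, the 5 above included. This set was put together after the values of the 10 genes were known. Of these, 28 were protein-coding genes in the count table and 15 were tested, 10 of them outside the 10 genes. Those 10 had a median log2 fold change of 0.09, with values from −0.49 to 0.49. None was called higher or lower by edgeR's quasi-likelihood test, 1 was higher and 1 lower at an unadjusted p under 0.05.

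The highest was Syvn1, the ERAD ubiquitin ligase, and the lowest was Xlr3b, an X-linked lymphocyte gene, which measured 13.0 and 13.2 CPM in the controls and 9.41 and 9.23 CPM in the IFNα samples (log2 fold change −0.49, adjusted p = 0.312, edgeR). Xlr3b has near-identical copies, and how the counting shared reads among them was not tested. Dnajc3, which encodes the PERK inhibitor p58IPK, stood at 120 and 134 CPM in the controls and 135 and 136 CPM in the IFNα samples (0.09).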
